A study of Ginkgo biloba with 7 samples.

Results

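The transcripts described here were higher in pollinated ovules of Ginkgo biloba than in ovules that were secreting their pollination drop. They were chosen by their values in a pair of RNA-seq libraries, 1 library per stage. A gene was a member if it stood at 20 FPKM or more in the library of pollinated ovules (PN1) and if the ratio of PN1 to PD1, with 1 FPKM added to each, was 4 or more. FPKM is the number of fragments scaled to the length of the gene and the size of the library, as the authors computed it. Genes that the authors listed as targets of a microRNA were left out. These limits gave 134 members of the 43456 genes in the table, or 1.8% of the 7442 genes outside the target list that reached 20 FPKM in PN1. Because the values that chose the members are the values given below, the levels and ratios are descriptions and carry no test.

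The PN ovules were collected 1 day after pollination, and the PD ovules were mature ovules secreting the drop. Both came from trees of the cultivar Fozhi, about 20 years old and growing under natural conditions, with ovules taken from 3 to 5 trees per the labels' protocols. The labels do not say whether ovules of several trees were pooled in a library or whether the libraries share trees. The series labels 2 RNA-seq samples per stage. Only PN1 and PD1 could be matched to a column of the gene table by name, so every value below rests on 1 library per stage and has no replicate error. No unpollinated ovules of the later day were among the samples, so pollination and the time between the stages cannot be told apart. RNA of pollen on the pollinated ovules cannot be told apart from ovule RNA either.

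The ovule of Ginkgo is a naked seed precursor on a stalk, with a single integument around the nucellus. When receptive, it exudes a drop at the micropyle that catches pollen from the wind. The drop is then withdrawn, which carries the pollen into the pollen chamber, and the micropyle closes. The pollen germinates there into a branched tube that feeds on the nucellus, long before motile sperm are released for fertilisation. The gene IDs of the table are not paired with names or functions in the files, so the members are described by their levels, and only the 2 with the highest PN1 level are given by ID.

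Most members were above 1 FPKM in the secreting ovules and stood several times higher in the pollinated ones. Their median level was 55.8 FPKM in PN1 (quartiles 31.02 and 120.02, range 20.3 to 676) and 7.86 FPKM in PD1 (quartiles 4.03 and 15.9, range 0 to 144). Of the 134 members, 130 were above 1 FPKM in PD1, and 25 were at 20 FPKM or more there. At most 1 FPKM was listed in PD1 for 4 members, and 2 of these were listed at 0. These 2 stood at 28.6 and 21.8 FPKM in PN1. No other gene of the table was listed at 0 in PD1 and reached 20 FPKM in PN1. Outside the target list the limits fix this, because any such gene has a ratio above 4. The small number at or under 1 FPKM in PD1 depended on the minimum of 20 FPKM in PN1. It was 19 of 190 genes with a minimum of 10 FPKM and 109 of 286 genes with no minimum. In whole ovules, more cells of a type and more RNA per cell cannot be told apart.

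**Figure D1:**
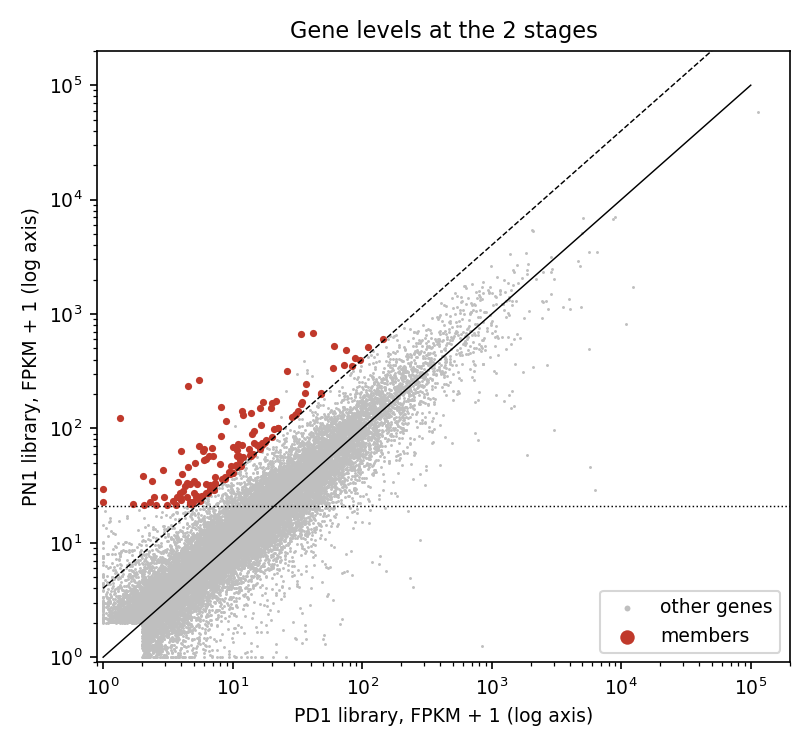
Level of each gene in PN1 (vertical axis) against PD1 (horizontal axis), both as FPKM + 1 on log axes, for genes of at least 1 FPKM in either library. Red points are the 134 members and grey points are other genes, including the microRNA targets left out; the solid line marks equal levels, the dashed line a ratio of 4 and the dotted line 20 FPKM in PN1. The members lie along the upper edge of the cloud, and few of them stand far above the dashed line.

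The most abundant member in PN1 was a gene model that the table calls Novel00778. It had 676 FPKM in PN1 and 40.4 FPKM in PD1, a ratio of 16.3 on the FPKM + 1 scale. It ranked 185 among all genes in PN1 and 4365 in PD1. The next member, Gb_14482, had 661 FPKM in PN1 and 32.8 FPKM in PD1, a ratio of 19.6. It ranked 191 in PN1 and 5310 in PD1. Both transcripts therefore belonged to the upper 200 genes of the pollinated ovule library, while neither stood among the first 4000 of the secreting ovule library.

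Another 3 members exceeded 500 FPKM in PN1, and they were already abundant in PD1. They stood at 604, 525 and 517 FPKM in PN1, against 144, 59.6 and 109.8 FPKM in PD1 in the same order. Their ratios of 4.17, 8.69 and 4.68 were below those of the 2 most abundant members. Together the 5 members above 500 FPKM held 21.4% of the summed FPKM of all members in PN1.

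The members were a small part of the transcript pool at either stage. They held 1.33% of the summed FPKM in PN1 and 0.191% in PD1. None was among the 100 most abundant genes of either library. In PN1, 11 members were among the first 500 genes and 40 among the first 2000, against 0 and 4 in PD1. The median rank of a member was 3331 in PN1 and 12882.5 in PD1. For scale, members were 1.8% of the 7442 genes outside the target list at 20 FPKM or more in PN1. The lower ranks in PD1 follow from the limit on the ratio.

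**Figure D2:**
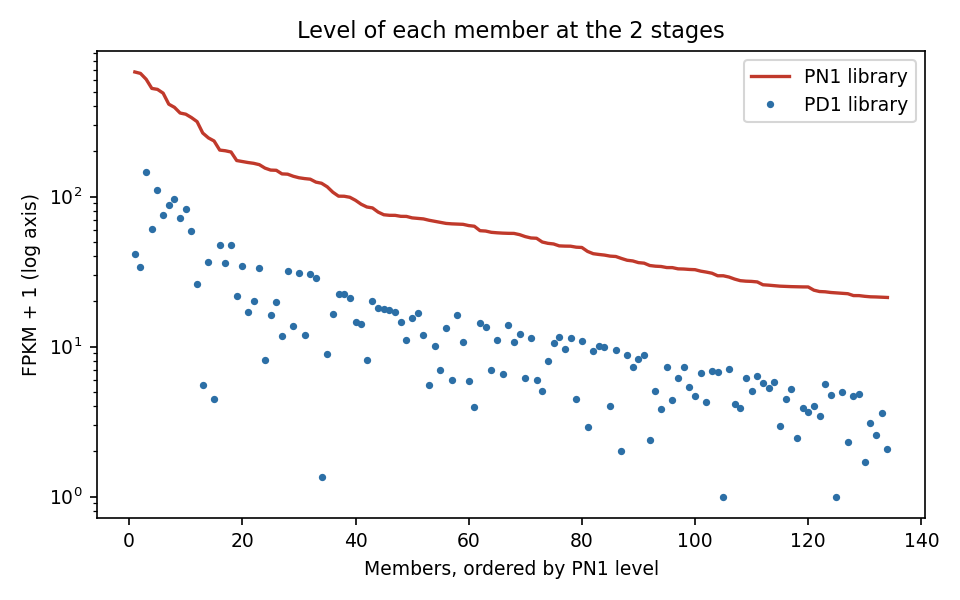
Level of each of the 134 members, as FPKM + 1 on a log axis, ordered from left to right by its PN1 level. The red line gives PN1 and the blue points give PD1, 1 library each; the most abundant members in PN1 were mostly above 20 FPKM in PD1 too, and 2 members lie at 0 FPKM in PD1.

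The ratios of most members were modest. The median ratio was 5.60 on the FPKM + 1 scale, with quartiles at 4.43 and 8.72. A ratio from 4 to under 5 was found for 60 members, from 5 to under 8 for 33 and from 8 to under 16 for 32. Of the other members, 6 were between 16 and 32, and 3 exceeded 32, with the highest at 91.1. Over the 132 members above 0 in PD1, the median ratio without an added FPKM was 6.02. The median gene among the 7442 genes outside the target list that reached 20 FPKM in PN1 had a ratio of 1.15.

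High ratios went with low levels in PD1, where the limit of 20 FPKM in PN1 sets a floor on the ratio. The 4 members under 1 FPKM in PD1 had a median ratio of 26.2, and the 43 members from 1 to under 5 FPKM had one of 7.04. The 32 members from 5 to under 10 FPKM in PD1 had a median ratio of 4.70, close to the median of 4.67 for the 16 members from 20 to under 50 FPKM. Members that were already well expressed in the secreting ovule could still differ widely, up to a ratio of 19.6 among those from 20 to under 50 FPKM in PD1.

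The share of genes that met the limits is the background for these counts. Of the 7442 genes outside the target list at 20 FPKM or more in PN1, 1.8% were members, which the rule itself fixes. At least 2-fold higher in PN1 were 855 of these genes, or 11.5%, and at least 8-fold higher were 41, or 0.551%. By PN1 level, members were 1.501% of the genes from 20 to under 50 FPKM (62 of 4130) and 2.11% of those from 50 to under 100 FPKM (36 of 1706). They were 2.13% from 100 to under 200 FPKM (19 of 891), 2.52% from 200 to under 500 FPKM (12 of 477) and 2.101% at 500 FPKM or more (5 of 238). Members were found in each of these classes, although none exceeded 676 FPKM in PN1.

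The limits passed through a continuous range of values. The nearest members had ratios of 4.01, 4.03 and 4.07, and the nearest genes outside had ratios of 3.97, 3.98 and 3.98. By level, the nearest members had 20.3, 20.3 and 20.4 FPKM in PN1, and the nearest genes outside had 19.3, 19.4 and 19.99 FPKM. Of 286 genes outside the target list with a ratio of 4 or more, 152 were under 20 FPKM in PN1.

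The same limits with the stages exchanged selected 152 genes that were lower in PN1, or 2.08% of the 7314 genes outside the target list at 20 FPKM or more in PD1. The number of members was close to this with the FPKM values as they stand, but their levels did not reach as high. Rescaling lowered the members to 104 (median of ratios) or 114 (equal sums without the 10 most abundant genes). The set with the stages exchanged was not rescaled, so its number under either scaling is not given. Both scalings lowered PN1 relative to PD1, by factors of 0.922 and 0.949, so that set could not shrink. The closeness of both counts therefore holds only for the FPKM values as they stand. The highest member had 676 FPKM in PN1, while the highest of the 152 genes had 12391 FPKM in PD1, and 18 of the 152 exceeded 676 FPKM there. The median levels at the higher stage were much alike, at 55.8 FPKM in PN1 for the members and 57.7 FPKM in PD1 for the 152 genes. The members held 1.33% of the summed FPKM in PN1, and the 152 genes held 5.91% in PD1. At the lower stage, 4 of 134 members and 15 of 152 genes were at 1 FPKM or less. These are values of a single library per stage, and the differences between both sets were not tested.

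**Figure D3:**
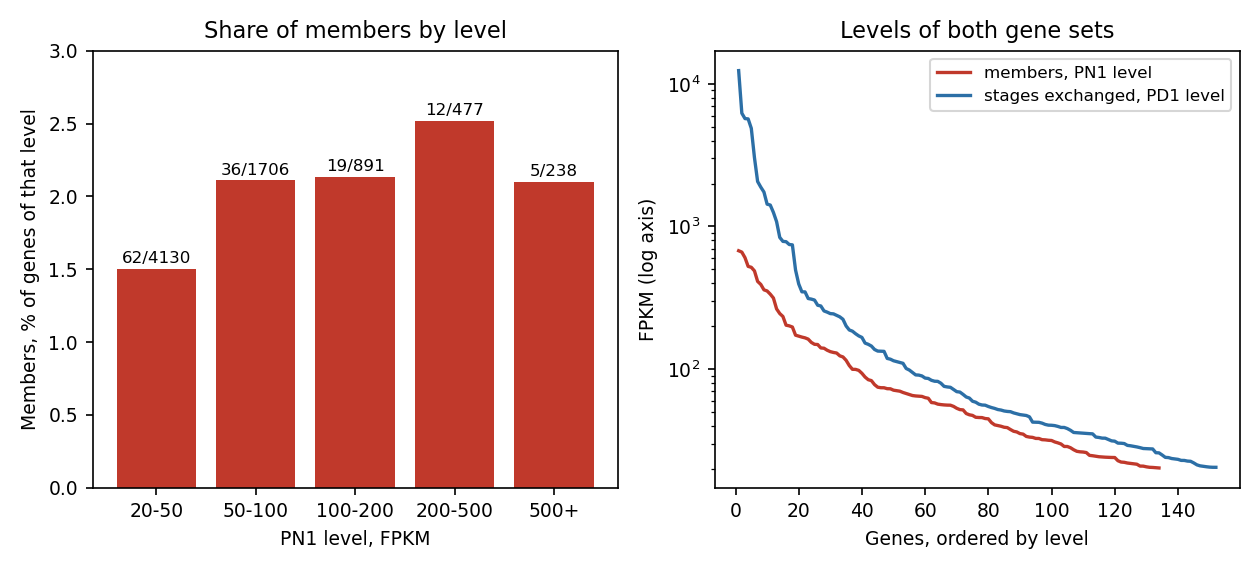
Left, members as a percentage of the genes outside the target list in each class of PN1 level, with the number of members and of genes above each bar. Right, level in FPKM (log axis) of the 134 members in PN1 (red) and of the 152 genes chosen with the stages exchanged in PD1 (blue), each ordered from high to low; the blue curve starts at 12391 FPKM and the red one at 676 FPKM.

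The members were also described by their gene models, which the rule did not use. Of the 134 members, 8 (5.97%) were models whose ID lacks the prefix Gb, against 209 of the 7442 genes outside the target list at the same minimum level (2.81%). The 8 ranged from 20.3 to 676 FPKM in PN1, with a median of 70.1 FPKM, and the 126 members with the prefix Gb had a median of 55.3 FPKM. What sets these models apart is not given in the sources used here. Among the genes chosen with the stages exchanged, 19 of 152 (12.5%) were such models, against 201 of the 7314 genes at 20 FPKM or more in PD1 (2.75%). The higher share was therefore seen in both directions, and with 8 such members it rests on few genes.

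Some members had neighbouring ID numbers. Among the 126 members with the prefix Gb, 12 formed 6 pairs with consecutive numbers. With the listed targets left out, no run was longer than 2. Of 49 Gb genes outside the target list that reached 20 FPKM in PN1 and stood next to a member by number, 12 were members themselves, or 24.5%, against 1.74% of all 7233 such Gb genes. Gb_14482 belonged to such a pair, and the member with the number before it had 264 FPKM in PN1 and 4.51 FPKM in PD1, a ratio of 48.2. The other 37 genes next to a member were not members. Of these, 5 were at least 2-fold higher in PN1 (13.5%), against 696 of 7107 Gb genes that were not members (9.79%). Their median ratio was 1.29, against 1.14 for those 7107 genes. Both groups hold only genes of at least 20 FPKM in PN1, so neighbours that fell below this level in PN1 were not counted. Whether neighbours share the direction of members was therefore not tested.

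Such pairs were also found among the genes chosen with the stages exchanged, where 14 of 61 genes next by number to a selected gene were selected too (22.95%, against 1.87% of 7113 Gb genes). Neighbouring numbers were therefore seen in both directions. Neighbours could also differ in direction. A member at 233.8 FPKM in PN1 and 3.48 FPKM in PD1, a ratio of 52.4, was followed by number by a gene of the exchanged set. That gene had 4.98 FPKM in PN1 and 52.99 FPKM in PD1. Pairs of opposite direction were not counted. Whether the numbers follow the order of genes on the chromosomes is not given in the sources used here. Near-identical copies can share reads, so the levels of such pairs are uncertain, and the part of shared reads in these pairs was not tested.

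Another 13 genes met both limits and were left out because they are on the authors' target list. They made up 2.33% of the 559 listed targets at 20 FPKM or more in PN1, against 1.8% of genes outside the list. Their median level was 154.7 FPKM in PN1 (range 24.1 to 385) and 24.6 FPKM in PD1 (range 4.86 to 39.96), with ratios from 4.08 to 10.9. The 9 members with ratios above 16 thus all exceeded them. By number, 2 of these 13 genes stood next to a member. The gene with 385 FPKM in PN1 directly followed a pair of members, so a longer run appears when targets are kept.

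The 13 genes were paired with microRNAs of 12 families in 17 pairs. microRNAs are short RNAs that guide the cleavage or silencing of matching transcripts. The family with most of these genes was miR396, which regulates growth-regulating factors in other plants, with 3 genes. miR159, known in flowering plants as a regulator of MYB factors, miR482, known there for disease resistance genes, and miR5077 had 2 genes each. The listed targets of each family were not counted, so no share per family can be given and the order of families carries no weight. In 11 of the 17 pairs the microRNA name had under 50 reads over both small RNA libraries. Summed over all microRNA names, the counts were 1129198 for PN and 774387 for PD, and read shares refer to these sums.

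The other 6 pairs had microRNA names with more reads. pde-miR159 had 465 reads in PN and 98 in PD, a ratio of read shares of 3.25 (exact 95% interval 2.61 to 4.09, counting error only). Its listed gene had 154.7 FPKM in PN1 and 33.3 FPKM in PD1. ath-miR858b, of a family known for MYB targets, had 506 reads in PN and 216 in PD, a ratio of 1.61 (1.37 to 1.89), and its gene stood at 51.4 FPKM in PN1 and 11.6 FPKM in PD1. mdm-miR396a had 168 reads in PN and 78 in PD, a ratio of 1.48 (1.12 to 1.96), and its gene had 82.5 FPKM in PN1 and 19.03 FPKM in PD1. The 3 microRNA names were thus higher in the PN library than in the PD library, while the direction of their genes was fixed by the limits that chose them.

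The remaining 3 names differed little between the small RNA libraries. The ratios of read shares of PN over PD were 1.02 for gma-miR166u (1.02 to 1.03), 0.954 for ath-miR394a (0.893 to 1.02) and 0.905 for gma-miR396h (0.828 to 0.989). Their genes had 287, 300.4 and 24.1 FPKM in PN1, against 39.96, 30.6 and 4.86 FPKM in PD1 in the same order. Each small RNA value comes from 1 library per stage, and no relation between a microRNA and its gene was tested.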

How the data were processed

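FPKM values of the gene table were deposited by the authors and used as they stand. The submitters' processing notes list Bowtie, TopHat, TopHat2 (version 2.0.12) and Cufflinks (version 2.1.1). No source used here gives the genome build, the annotation or any filter. The headers name PN1 and PD1 once each, while 2 further columns are both headed PD2 and none is headed PN2. Those 2 columns cannot be assigned to a sample by name and were not used, so the planned fit in limma over a second library per stage was not run. The small RNA table holds read counts per microRNA name, deposited as whole numbers without normalization, per the file headers. How reads were assigned to names is not stated, and a read may count under several. The target list pairs names with genes and has no values; repeated rows left 1084 pairs of 1092.

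Members were found with pandas 2.3.3 and Python 3.11.15, and exact Clopper-Pearson intervals with SciPy 1.17.1. How the rule responds to differences between libraries of the same stage was not tested. Members and lists were chosen with earlier results of these data known. Genes named were the 2 members with the highest PN1 level. Absolute depth of the FPKM table is unknown. Steps of low values, over 2379 genes under 0.5 FPKM in both libraries, placed 1 fragment of PN1 at 0.848 times its worth in PD1, a relative depth of 1.18. The alternatives tried were other pseudocounts, minimum levels, ratios and scalings.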

Additional observations from a re-analysis of the deposited data

How the results depend on the processing

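No paired analysis was possible because each stage had a single RNA-seq library with a column of unique name; for the same reason the replicates could not be left out in turn. The number of members moved most with the limits: 71 with a pseudocount of 5, 72 with a minimum of 50 FPKM, 286 with no minimum, 269 at a ratio of at least 3 and 41 at a ratio of at least 8, as looser or stricter limits do by construction. All 134 members were kept with a pseudocount of 0.1 (163 genes) and a minimum of 10 FPKM (190 genes), which these looser limits fix in advance. Rescaling by median of ratios, which multiplied PN1 by 0.922 relative to PD1, kept 104 members and added none, and equal sums without the 10 most abundant genes kept 114. Both scalings lowered PN1 relative to PD1, so neither could add a member. The members' share of the PN1 sum was 1.42% with a pseudocount of 0.1, 1.01% with 5, 1.40% and 1.15% with minimums of 10 and 50 FPKM, 1.46% with none, 3.01% and 0.496% at ratios of 3 and 8, 1.04% with median of ratios and 1.15% with equal sums. Genes at 1 FPKM or less in PD1 numbered 19 with a minimum of 10 FPKM, 1 with 50 FPKM and 109 with none. The targets left out numbered 23 at a ratio of 3 and 6 at a ratio of 8. With targets kept there were 147 genes. With targets left out and only models of the prefix Gb there were 126. Without replicates, none of these counts separates stages from libraries.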
